A study of Mus musculus with 15 samples.

Results

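The promoters of the mouse Toll-like receptor genes Tlr1, Tlr2, Tlr3, Tlr4, Tlr5, Tlr6, Tlr7, Tlr8, Tlr9 and Tlr13 were compared between dendritic cells (DCs) and fibroblasts for how nucleosomes lie around them. Members were chosen by gene name: the RefSeq transcript of each annotated promoter was matched to a gene symbol, and all rows of these genes were kept, giving 10 promoters, 1 per gene, of 25881 in all. Toll-like receptors are membrane proteins that recognise conserved microbial molecules. Tlr1, Tlr2, Tlr4, Tlr5 and Tlr6 act at the cell surface, where Tlr2 pairs with Tlr1 or Tlr6 to bind lipopeptides, Tlr4 with its co-receptor recognises lipopolysaccharide (LPS) and Tlr5 recognises flagellin. Tlr3, Tlr7, Tlr8, Tlr9 and Tlr13 act in endosomes. Tlr3 recognises double-stranded RNA, Tlr7 single-stranded RNA, Tlr9 unmethylated CpG DNA and Tlr13 bacterial ribosomal RNA. DCs use these receptors to sense infection, and their ligation leads through adaptor proteins to NF-κB and interferon responses.

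Occupancy came from ChIP-MNase: chromatin in pieces of several kilobases is immunoprecipitated and only then cut to single nucleosomes by micrococcal nuclease. There were 15 libraries. DCs, differentiated with GM-CSF from progenitor lines of mouse bone marrow, gave 1 non-stimulated set and 1 set after 1 h of LPS at 100 ng/ml; 3T3 fibroblasts, an established embryonic mouse line, gave 1 non-stimulated set and 1 set treated with TNF-α (5 ng/ml, 1 h). Each of these 4 H3K4me1 sets pools 2 replicates. A further 8 single H3K4me1 libraries came from control fibroblasts and from fibroblasts with stable knock-down of Brg1 and Brm, the catalytic subunits of the BAF chromatin remodelling complex, each non-stimulated or after TNF-α, with 2 replicates per group. The knock-down came from 1 shRNA with a shared target, expressed from a retroviral vector in cells sorted for its fluorescent reporter. The last 3 libraries, 2 for RNA polymerase II phosphorylated at Ser7 (S7P) and 1 for Ser5 (S5P), were all from TNF-α-stimulated fibroblasts. The study describes its replicates as biological, without saying how the cultures were kept apart, and the p-values below measure the spread between these libraries. For the cell-type tests this spread comes mostly from the single fibroblast libraries and holds no spread between DC replicates.

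Occupancy was deposited in 200 bins of 10 bp from −1000 to 1000 bp of the transcription start site (TSS), relative to the fragments in the surrounding 1 kb, so the number of reads behind a value cannot be read from the occupancies. The authors' coverage score, a count of fragments near the TSS, was above 100 at 13559 promoters, or 52.4% of the 25881. Among the Toll-like receptors 6 of 10 passed this minimum. Tlr9 had the highest score (308.2), followed by Tlr5 (231.8), Tlr2 (225.8) and Tlr6 (210.5), while Tlr7 (109.5) and Tlr3 (108.2) lay just above it. Tlr1 (98.75), Tlr13 (79.25), Tlr8 (68.75) and Tlr4 (67.5) were at or below it, and their values rest on few fragments. Over the high-coverage promoters 82.0 to 90.2% of bins held signal in the pooled H3K4me1 sets, against 63.6 to 78.1% in the single H3K4me1 libraries, so single values are the noisier.

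Promoter sequences are shown for Tlr13, Tlr9 and Tlr7, 3 endosomal receptors with the widest cell-type contrasts in the results that follow. Bases run 5′ to 3′ upstream of the annotated TSS, in the mm9 assembly, and bases that lie inside any GENCODE transcript of the gene were left out. Capitals mark matches to GGAA (the core bound by ETS factors such as PU.1) and TGANTCA (an AP-1 motif), searched on both strands.
Tlr13 (chrX:103338465-103338542, plus strand, −150 to −73 bp): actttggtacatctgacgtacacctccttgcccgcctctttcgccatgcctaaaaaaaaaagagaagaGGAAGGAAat
Tlr9 (chr9:106124780-106124928, plus strand, −150 to −2 bp): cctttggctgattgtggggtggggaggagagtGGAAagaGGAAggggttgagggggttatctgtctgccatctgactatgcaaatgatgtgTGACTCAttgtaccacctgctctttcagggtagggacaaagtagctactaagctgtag
Tlr7 (chrX:163768491-163768610, minus strand, −150 to −31 bp): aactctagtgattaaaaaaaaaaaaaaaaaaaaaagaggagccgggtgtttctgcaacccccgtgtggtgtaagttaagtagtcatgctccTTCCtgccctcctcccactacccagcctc

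Each of the 10 promoters had at least 1 GGAA match in the 150 bp before the TSS, a motif that 79.3% of 25738 searched promoters also held. Tlr3 had the most, with 5 matches. TGANTCA was found at Tlr9 alone among the 10, starting 59 bp upstream, and in 3.86% of all promoters. TATAAA was found at Tlr6 alone, at −123 bp, and in 7.42% of all. An NF-κB-type motif of 10 letters, whose last 4 letters count also as a GGAA match on the other strand, was found only at Tlr3, at −52 bp, and in 0.936% of all. No member held an interferon-response-type motif (a pair of GAAA blocks), which occurred in 1.59% of promoters and can overlap GGAA. A match is a description of the letters in this window.

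The Toll-like receptor promoters were poor in CpG. By a common definition (G+C over 50% and CpG above 0.6 of its expected number, within 200 bp on each side of the TSS), none of the 10 was a CpG island, compared with 48.3% of all promoters. Tlr2 was the richest in G+C (65.5%, CpG ratio 0.513) and had 9 CG dinucleotides in the 150 bp before its TSS. Tlr6 had the highest CpG ratio (0.871) but only 40.8% G+C. Tlr9, whose product recognises CpG DNA, had a ratio of 0.0713 and no CG in the 150 bp. The annotated TSS at Tlr2 and Tlr4 lay 159 and 193 bp downstream of the nearest GENCODE start, and that at Tlr1 and Tlr13 62 and 47 bp downstream. Windows counted from the TSS thus start at another place there than at Tlr3, Tlr5, Tlr7 and Tlr9, where a GENCODE start was within 1 bp. The furthest GENCODE start of Tlr13 lay 72 bp upstream, so the bases next to its annotated TSS lie inside a GENCODE transcript. Tlr1 and Tlr6 are neighbours on chromosome 5, with TSSs 27335 bp apart.

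Expression before stimulation separated the receptors by cell-type. The authors had taken 1 RNA-seq value per promoter and cell-type from public data sets, on scales that differ between the columns, so each value is read only within its own cell-type and has no replicate error. A promoter was called active above 0.02 times the mean over promoters, which is 0.0507 in DCs and 1.6 in fibroblasts. In DCs 9 of 10 receptors were active, against 48.1% of all promoters, and in fibroblasts 4 of 10, against 40.2%. Tlr2, Tlr3, Tlr4 and Tlr6 were active in both, as were 33.6% of all promoters. Tlr1, Tlr7, Tlr8, Tlr9 and Tlr13 were active in DCs only, a class of 14.5% of all promoters, and Tlr5 was below the threshold in both.

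Tlr2 had the highest DC value of the family (33.2, 99.3rd percentile of promoters), then Tlr4 (16.8) and Tlr13 (9.05). The endosomal receptors Tlr8 and Tlr7 followed with 3.96 and 3.50. Tlr3 was the lowest of the active genes in DCs (0.299, 62.5th percentile). In fibroblasts Tlr4 came first (21.5, 89.6th percentile), ahead of Tlr2 (13.8), Tlr3 (3.20) and Tlr6 (3.09). Tlr1, at 0.998, lay below the fibroblast threshold, and the remaining 5 receptors ranged from 0.0172 at Tlr13 to 0.146 at Tlr7. As a check of the labels, 7 of 8 DC markers were active in the DC column and 1 of 8 in the fibroblast column, and all 8 fibroblast markers were active in the fibroblast column against 2 of 8 in the DC column. All 4 macrophage and monocyte markers found were also active in DCs, and 2 of them (Cd14, 2.36, and Mertk, 3.87) in the fibroblast column too. In the DC column 1 of 3 B cell markers (Cd79a, 0.138, with Ms4a1 at 0) and 1 of 3 granulocyte and mast cell markers (Mpo, 0.0777, with Cpa3 at 0) were active as well. The part of such cells in the DC values was not tested.

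**Figure D1:**
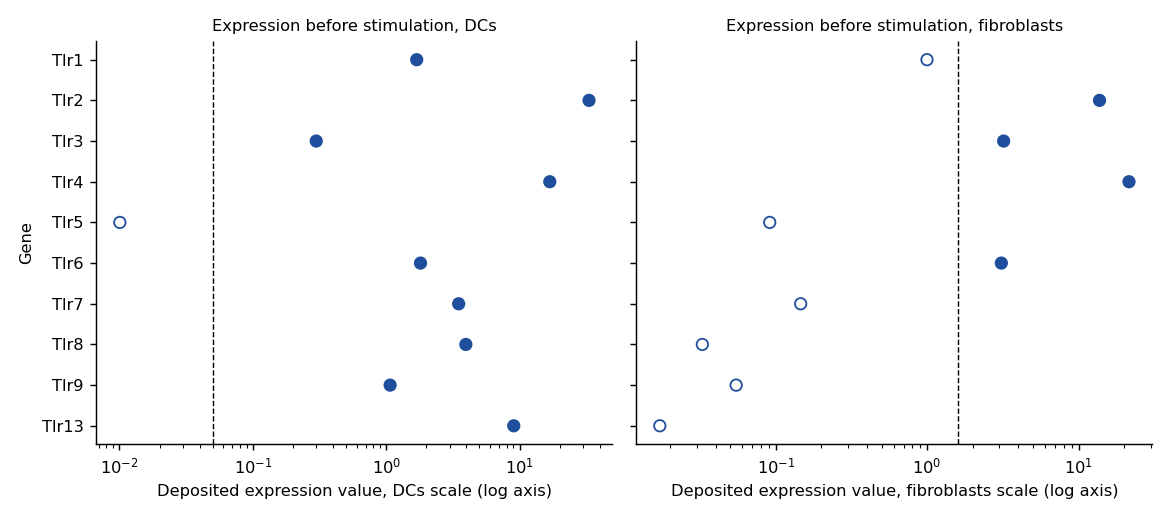
Deposited expression before stimulation for the 10 Toll-like receptor genes in DCs (left) and fibroblasts (right), 1 value per gene on logarithmic axes with separate scales. The dashed line is the threshold for an active promoter (0.0507 and 1.6), filled circles lie above it, and 9 receptors pass in DCs against 4 in fibroblasts.

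The question was whether promoters of this family differ in nucleosome positioning between the cell-types. Positioning was described by 2 measures, with every library first set to the same mean occupancy. The patterning level is the sum over 200 bins of the promoter's occupancy multiplied by the mean profile of active promoters of the same cell-type, both centred. A high level means nucleosomes placed as at a typical active promoter, with an open TSS and a positioned nucleosome downstream. The log2 NDR ratio compares mean occupancy in the nucleosome-depleted region (NDR, −150 to 0 bp) with that from −1000 to −500 bp, with 0.1 added to each, and is negative where the TSS is depleted. In the pooled H3K4me1 sets, median patterning levels were 5.12 to 6.53 at active high-coverage promoters. They were 0.192 to 0.710 at high-coverage promoters with an expression value of 0. Promoters with a value above 0 but not above the threshold are in neither group.

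Tlr13 had the clearest depleted TSS in DCs. Its patterning level was 10.4 in non-stimulated and 11.5 in LPS-stimulated DCs, the 84.6th and 86.9th percentile of high-coverage promoters. In pooled fibroblasts it was 4.03 without and 0.568 with TNF-α, and the 8 single fibroblast libraries ran from −8.57 through a median of −1.31 to 6.23. Both DC sets thus lay above all 10 fibroblast H3K4me1 libraries, which was the case at 2.73% of all promoters and at no other Toll-like receptor. The log2 NDR ratio of Tlr13 was −2.64 and −3.65 in DCs, and −0.13 and −0.68 in the pooled fibroblast sets. The single fibroblast libraries had log2 NDR ratios of −3.30 to 0.33, with a median of −0.37. A single library, BAF-knockdown non-stimulated replicate 2, gave the −3.30 and overlapped the DCs.

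In the DC sets the Tlr13 TSS was flanked by a bare stretch. No bin from −80 to −10 bp held signal in non-stimulated DCs, and after LPS the bare stretch ran from −170 to 60 bp. The first downstream peak was centred at 115 bp in both DC sets, with a scaled occupancy of 2.96 and 3.31. In pooled non-stimulated fibroblasts the first downstream peak was also at 115 bp, but a peak stood at −65 bp, inside the window that was bare in DCs. In the TNF-α-stimulated set the nearest peaks stood at −85 and 45 bp, and the bins centred at −35 to −15 bp were empty at Tlr13 there too. Empty stretches near the TSS were not particular to DCs. In pooled fibroblasts the longest ran from −200 to −150 bp without and from −230 to −140 bp with TNF-α. Bins far from the TSS could be empty as well, as those centred at 845 to 995 bp in non-stimulated DCs. The printed sequence, with its pair of adjoining GGAA matches at −82 and −78 bp, was cut at −73 bp by the GENCODE transcript start. Its last bases lie inside the stretch that was empty in non-stimulated DCs, but its end was not set by the occupancy. Tlr13 had a coverage score of only 79.25, and its estimates come from a fit on all 25881 promoters.

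**Figure D2:**
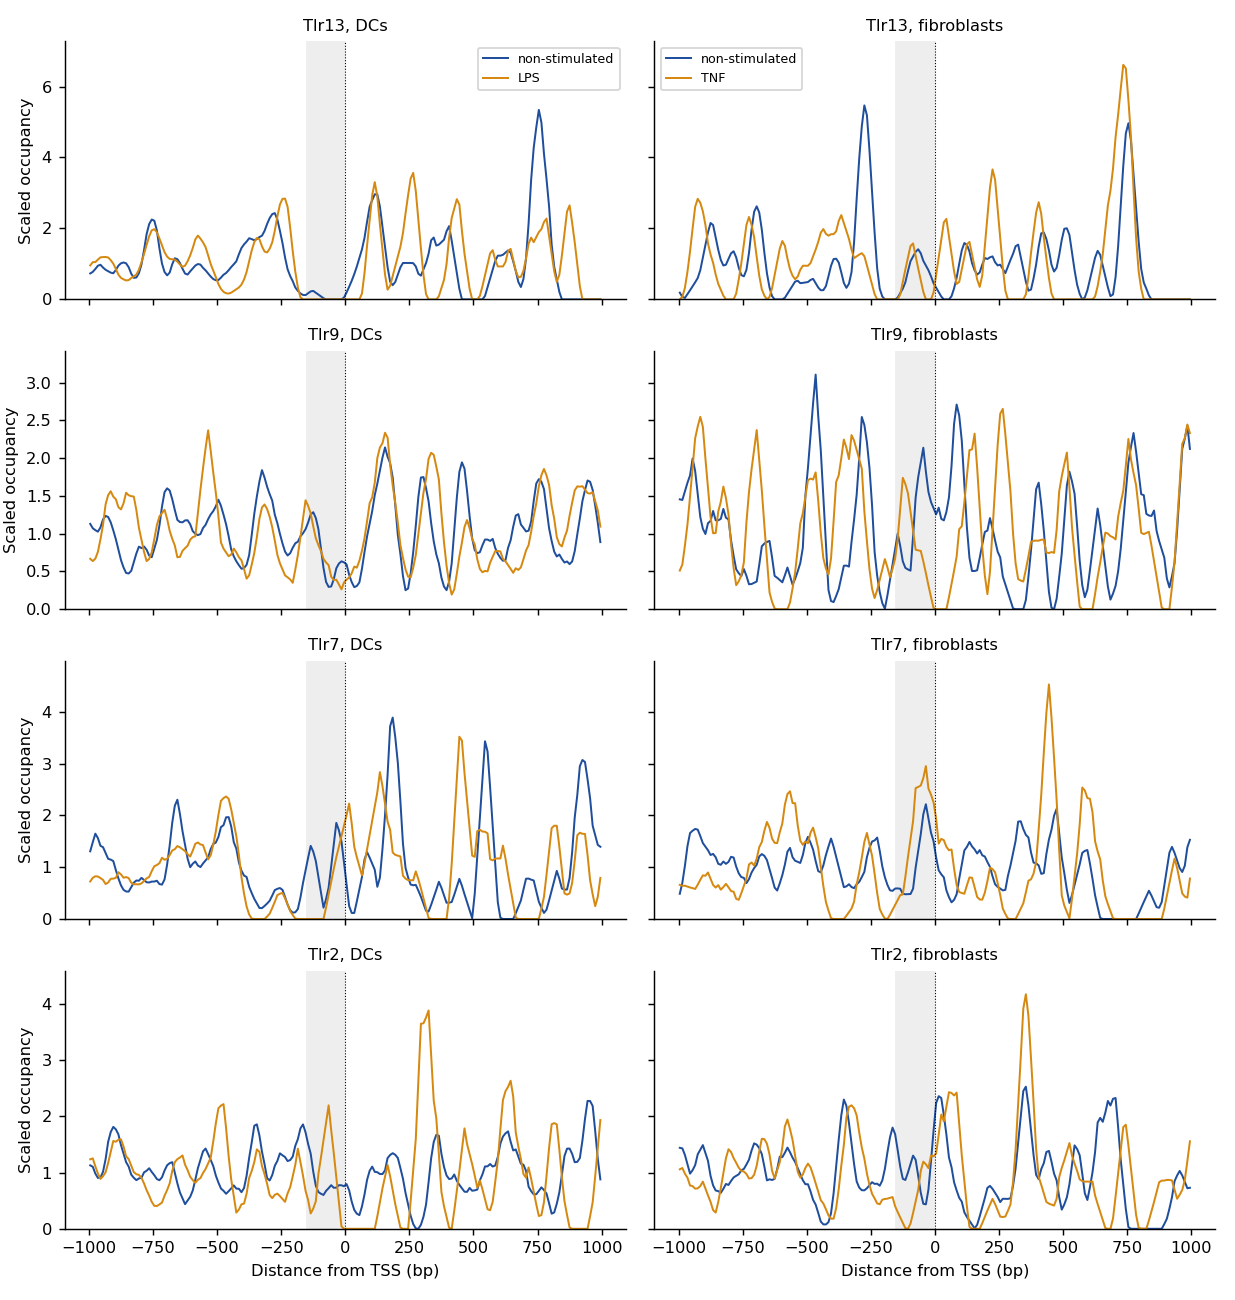
Scaled H3K4me1 ChIP-MNase occupancy against distance from the TSS (bp) at Tlr13, Tlr9, Tlr7 and Tlr2 in the pooled sets of DCs (left) and fibroblasts (right), non-stimulated in blue and stimulated in orange; the grey band is −150 to 0 bp. At Tlr13 the band is nearly empty in DCs and holds signal in fibroblasts, and Tlr9 peaks at 155 bp in both DC sets and in stimulated fibroblasts.

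Tlr9 was the best covered member. Its patterning level was 7.03 and 7.61 in the non-stimulated and LPS sets, and −2.96 and 5.60 in the pooled fibroblast sets. Every bin held signal in both DC sets. The first downstream peak lay at 155 bp in both, as it did in stimulated pooled fibroblasts, against 85 bp in non-stimulated ones. The profiles of the 2 DC sets correlated with Pearson's r = 0.548 over 200 bins, compared with a median of 0.369 over high-coverage promoters. Between non-stimulated DCs and fibroblasts r was −0.0966 for Tlr9 and 0.284 for the median promoter, while between the stimulated sets it was 0.273 for Tlr9 and 0.240 for the median promoter. Bins of 1 profile are smoothed and not independent, so these r are descriptions.

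The single fibroblast libraries were far less steady at Tlr9. Patterning levels ran from −18.6 to 12.6 with a median of −3.19, and 60.0 to 77.5% of bins held signal. The 2 non-stimulated BAF-knockdown replicates gave 12.6 and −13.1, and the TNF-α-stimulated ones gave 4.63 and −18.6. The median difference between replicates over the 4 groups was 14.3 at Tlr9, against 5.79 over all high-coverage promoters. The DC values fell inside this range.

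Tlr7 had patterning levels of 1.25 and 5.03 in DCs and of 0.780 and −11.7 in pooled fibroblasts, so that both DC sets were above both pooled fibroblast sets. The single fibroblast libraries, from −5.81 through a median of 0.151 to 13.0, covered the DC values. In both pooled fibroblast sets a peak stood at −35 bp, with a scaled occupancy of 2.22 without and 2.95 with TNF-α. Non-stimulated DCs also had a peak at −35 bp. In LPS-stimulated DCs no bin from −190 to −80 bp held signal, but the TSS itself was covered. Scaled occupancy there was 1.19 at −35 bp and 2.23 at a peak centred at 15 bp. The remaining endosomal receptors did not separate. Tlr8, with its low coverage, gave 2.33 and 5.09 in DCs and 8.68 and −4.87 in pooled fibroblasts, and Tlr3 gave 4.60 and −0.889 against 0.744 and 6.93.

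Of the surface receptors, Tlr2 had patterning levels of 3.18 and 2.93 in DCs and of −5.23 and −1.21 in pooled fibroblasts. The single fibroblast libraries spanned −10.1 to 11.7, with a median of 1.03. The log2 NDR ratio of Tlr2 overlapped, at −0.33 and −0.14 in DCs and −0.12 and −0.70 in pooled fibroblasts. In the single fibroblast libraries the ratio ran from −2.85, in BAF-knockdown TNF-α-stimulated replicate 1, to 0.66 in replicate 2 of the same group. Tlr4 gave 8.60 in non-stimulated and 1.41 in LPS-stimulated DCs, and −3.50 and 2.64 in pooled fibroblasts; its log2 NDR ratio was −1.28 in non-stimulated DCs and 0.30 after LPS. With 1 pooled set per state, this LPS difference has no replicate check.

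Tlr1, at a score just under the minimum, differed little: 1.07 and 4.15 in DCs against 1.78 and 1.57 in pooled fibroblasts. Tlr6 was below 0 in all 4 pooled sets, at −0.166 and −3.82 in DCs and −10.6 and −3.03 in pooled fibroblasts. Its profile in the 2 DC sets was the most alike of the family (r = 0.733), with signal in 99.0% of bins in both. Tlr5, the receptor not expressed above the threshold in either cell-type, was the only one with both DC sets below both pooled fibroblast sets, an order found at 19.7% of all promoters: −3.12 and 0.545 against 2.97 and 4.81. Its log2 NDR ratios stayed between −0.04 and 0.36 in the 4 pooled sets.

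**Figure D3:**
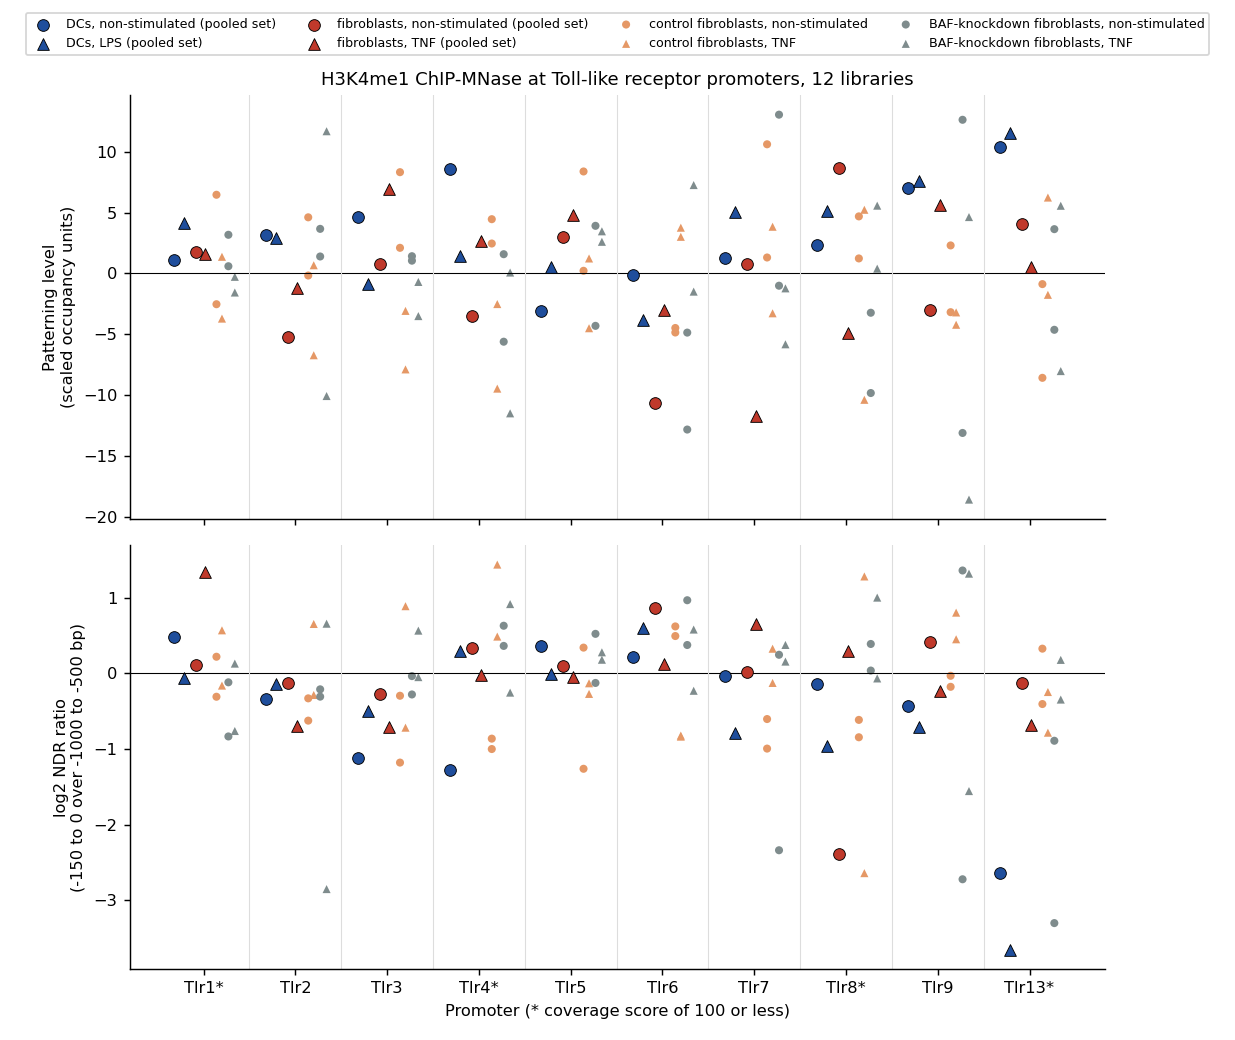
Patterning level (top) and log2 NDR ratio (bottom) of each Toll-like receptor promoter in the 12 H3K4me1 libraries; each point is 1 library, large outlined points are pooled sets of 2 replicates, and an asterisk marks a coverage score of 100 or less. Tlr13 in DCs lies above all fibroblast points in the top panel (10.4 and 11.5), and single fibroblast libraries span −18.6 to 12.6 at Tlr9.

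The cell-type difference was tested with limma over the 12 H3K4me1 libraries, with stimulation, BAF knock-down and kind of library (pooled or single) as terms. DCs have pooled sets only, so the estimate is the difference between the 2 DC and the 2 pooled fibroblast sets, and the single libraries enter through the error alone. For the patterning level 6 of 13559 promoters passed an adjusted p of 0.05 (0.0443%), and none of the 6 Toll-like receptors above the coverage minimum was among them. In the fit on all promoters 9 of 25881 passed (0.0348%), again without a Toll-like receptor. The unadjusted p was under 0.05 at 3.09% of the high-coverage promoters, at 5.60% of all promoters and at none of the 10 members.

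The largest estimates were 8.64 at Tlr13 (95% interval −3.83 to 21.1, limma adjusted p = 0.990), 8.60 at Tlr7 (−3.94 to 21.1, adjusted p = 0.999) and 6.28 at Tlr2 (−6.99 to 19.5, adjusted p = 0.999). Tlr9 (6.0), Tlr4 (5.44), Tlr6 (4.83), Tlr8 (1.80) and Tlr1 (0.935) were also positive, and Tlr3 (−1.98) and Tlr5 (−5.18) negative. All 10 intervals included 0. The DC mean was higher at 8 of 10 members, beside 47.9% of all promoters, and the median difference was 5.14 beside −0.164. By expression, the difference was positive at all 5 receptors active in DCs only, at 3 of the 4 active in both, and negative at Tlr5. The share of positive differences among all promoters of each class is not given here, so this split only describes the members. Leaving out 1 library turned the sign at Tlr1, Tlr8 and Tlr9 of the receptors active in DCs only. Both DC sets were above both pooled fibroblast sets at 4 members (Tlr2, Tlr7, Tlr9 and Tlr13), an order found at 17.5% of all promoters.

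For the NDR ratio no promoter of 13559 (0%) passed the adjusted threshold in limma, and 3.55% had an unadjusted p under 0.05. In the fit on all promoters 54 of 25881 passed (0.209%), 46 of them lower in DCs, and none was a Toll-like receptor. Tlr13 had the largest difference, −2.74 on the log2 scale (SE 1.03, 95% interval −5.08 to −0.40), with an unadjusted p of 0.0267 and a limma adjusted p of 0.752. Its interval was the only one of the 10 that excluded 0. The size of this difference changed with the constant added, being −4.20 with 0.02 and −1.27 with 0.5. An unadjusted p under 0.05 was reached at 5.84% of all promoters in that fit. The other 9 members ranged from −0.75 at Tlr7 to 0.50 at Tlr8. The log2 NDR ratio was higher in DCs at 3 of 10 members, beside 51.9% of all promoters, and both DC sets were below both pooled fibroblast sets at Tlr7, Tlr9 and Tlr13, an order found at 16.8% of all promoters.

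**Figure D4:**
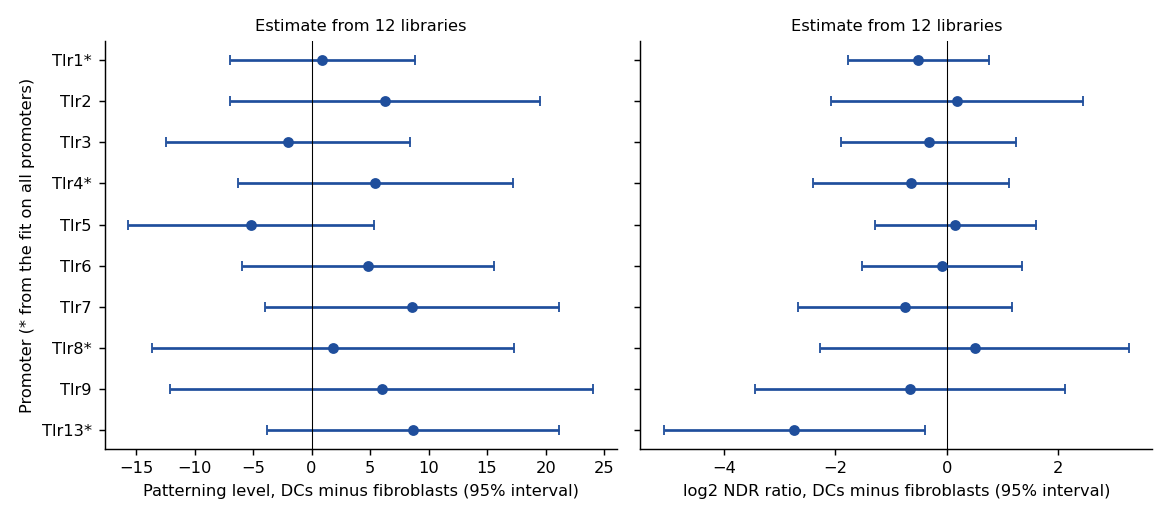
Estimated difference between DCs and fibroblasts at each Toll-like receptor promoter with its 95% interval (horizontal bars), for the patterning level (left, scaled occupancy units) and the log2 NDR ratio (right), from limma fits on 12 H3K4me1 libraries. Only the NDR interval of Tlr13 (−5.08 to −0.40) excludes 0, before adjustment for the number of promoters.

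Stimulation was tested in the 8 single fibroblast libraries, 4 with and 4 without TNF-α, with BAF knock-down as a term. No promoter of 13559 passed the adjusted threshold in limma (0%), and 5.71% had an unadjusted p under 0.05. Tlr6 and Tlr3 were the members below that value, in opposite directions. At Tlr6 the non-stimulated libraries gave −4.48 and −4.85 in control and −4.85 and −12.8 in BAF-knockdown cells, and the TNF-α-stimulated ones 3.75 and 3.01 in control and −1.49 and 7.25 in BAF-knockdown cells. All 4 stimulated values lay above all 4 non-stimulated ones, an order found at 1.59% of high-coverage promoters. The estimate was 9.88 (SE 2.89, unadjusted p = 0.0112, limma adjusted p = 0.866).

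At Tlr3 the order was the reverse. The non-stimulated libraries gave 2.10 and 8.31 in control and 1.05 and 1.41 in BAF-knockdown cells, and the stimulated ones −7.88 and −3.07 in control and −0.698 and −3.50 in BAF-knockdown cells. This order was found at 1.05% of high-coverage promoters, and the estimate was −7.01 (SE 2.69, unadjusted p = 0.0354, limma adjusted p = 0.866). The pooled fibroblast sets, which the fit did not use, went up from −10.6 to −3.03 at Tlr6 and also up, from 0.744 to 6.93, at Tlr3. They thus moved in the direction of the single libraries at Tlr6 and against it at Tlr3. The other 4 high-coverage members had estimates from −7.60 (Tlr7) to −1.35 (Tlr5), and those of low coverage from −6.56 (Tlr4) to 3.11 (Tlr13).

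**Figure D5:**
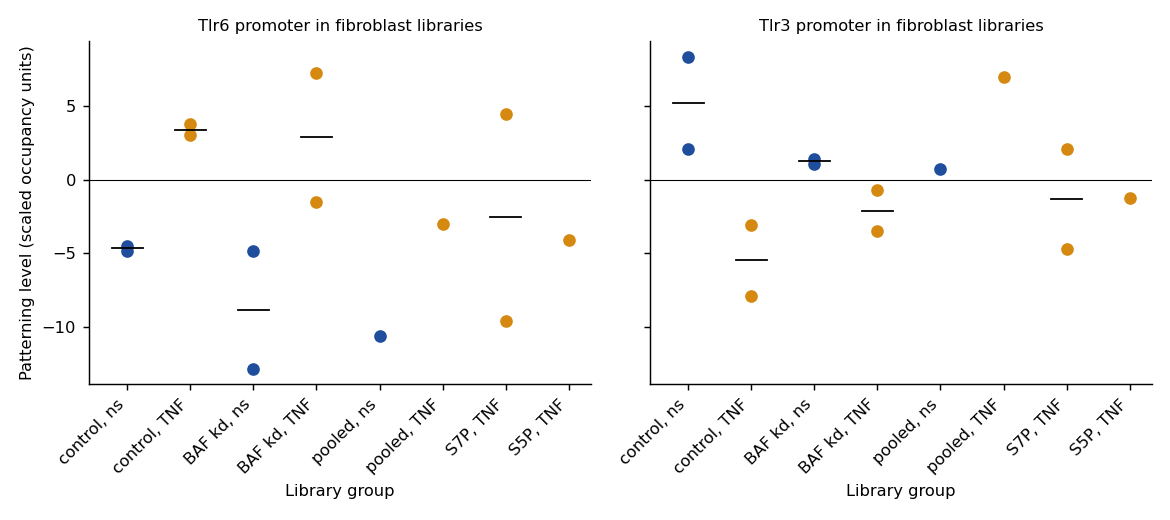
Patterning level of the Tlr6 (left) and Tlr3 (right) promoters in each fibroblast library, non-stimulated (ns) in blue and TNF-α-stimulated in orange, by library group; horizontal bars are means of 2 replicates and BAF kd is BAF knock-down. Among the 8 single H3K4me1 libraries TNF-α values are all higher at Tlr6 and all lower at Tlr3, while the pooled set rises at both.

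BAF knock-down was compared in the same 8 libraries with stimulation as a term. No promoter passed (0% of 13559), 5.85% had an unadjusted p under 0.05, and no member did. Estimates at the members ran from −2.59 at Tlr4 to 2.07 at Tlr2, and the interval at the best covered member, Tlr9, was −17.8 to 14.8. The difference in TNF-α effect between BAF-knockdown and control cells ranged from −3.86 at Tlr7 to 9.15 at Tlr5 over the 6 high-coverage members, with a smallest limma adjusted p of 0.878.

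Chromatin carrying polymerase was profiled in stimulated fibroblasts only, by paired-end reads, so antibody and read type cannot be told apart in a comparison with H3K4me1. Values at the promoters of the active genes Tlr2 and Tlr4 are given without a test. Tlr2 had patterning levels of 5.53 and 6.50 in the S7P libraries and of 8.92 in S5P, each above the −1.21 of the pooled TNF-α H3K4me1 set. The single TNF-α H3K4me1 libraries ran from −10.1 to 11.7 at Tlr2 and covered all these values. The log2 NDR ratio of Tlr2 was 0.19 and −0.43 in S7P, and −1.49 in S5P with signal in 100% of bins. The medians of active high-coverage promoters in S5P were a patterning level of 10.5 and a log2 NDR ratio of −1.60, so Tlr2 was not above the typical active promoter there. In S7P the median patterning levels of active promoters were 4.34 and 4.95. Tlr4, at low coverage, gave −7.53 and 2.34 in S7P and 0.335 in S5P. Of the other genes active in fibroblasts, Tlr3 gave −4.70 and 2.09 in S7P and −1.25 in S5P. Tlr6 gave −9.56 and 4.44 in S7P and −4.11 in S5P. In S5P only 30.0% of bins held signal at Tlr7 and 31.5% at Tlr8, against 55.5% (Tlr13) to 79.0% (Tlr9) at the other 4 receptors below the fibroblast threshold. No bin from −450 to 270 bp at Tlr7 held S5P signal, nor any from −380 to 390 bp at Tlr8, so low S5P NDR ratios there come from empty windows. The S7P replicates differed in patterning level by 0.971 at Tlr2, by 15.6 at Tlr9 and by 22.0 at Tlr8.

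Other genes of the pathway were taken as a list of 35 co-receptors, adaptors, kinases, ubiquitin ligases, inhibitors and the receptors Tlr11 and Tlr12. Of these, 34 genes were found, with 43 promoters, and 34 promoters were above the coverage minimum. None passed the adjusted threshold for the patterning level or the NDR ratio in limma; 0 of 34 and 1 of 34 had an unadjusted p under 0.05, beside 3.09% and 3.55% of all high-coverage promoters. Their median patterning difference was 0.186, beside −0.238 over all high-coverage promoters and 5.42 over the 6 Toll-like receptors of that coverage. By expression, 15 of the 43 promoters were active in DCs only (14.5% of all promoters), 2 in fibroblasts only (6.59%) and 19 in both (33.6%). The co-receptors and chaperones had 5 of 11 promoters active in DCs only. Their median patterning difference was 1.36 over the 9 promoters above the coverage minimum. The kinases and ubiquitin ligases had 11 of 18 active in both cell-types and a median of −1.63 over the 13 above that minimum.

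Promoters with patterning levels most like those of 3 members were sought over the 12 H3K4me1 libraries, by root mean square (RMS) difference. For Tlr7 these were 4930593A02Rik (3.76), Cox6b2 (4.13) and Tcf12 (4.19), beside a median RMS difference of 9.65 to all high-coverage promoters. For Tlr5 they were Snrpa (2.52), Dnaaf2 (2.68) and Snord70 (2.70), beside 7.88. For Tlr2 they were Zfp819 (2.58), Clic1 (3.43) and Lpin2 (3.54), beside 9.10. Promoters picked as nearest must lie below the median, so these distances are no test of likeness. Replicates of the single libraries differed by a median of 8.2 at Tlr7, 6.94 at Tlr5 and 6.08 at Tlr2.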

How the data were processed

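ChIP-MNase occupancies of 12 H3K4me1, 2 S7P and 1 S5P libraries from mouse cells were used. According to the study's methods the authors aligned reads to mm9 with bowtie, whereas the submitters' processing notes list Bowtie2 (version 2) and bedtools. The authors discarded likely PCR duplicates. Single-end reads (H3K4me1) were lengthened to the mean fragment size, paired-end reads (polymerase) were limited to 140 to 180 bp, and counts in 10 bp intervals were set relative to the 1 kb around them. The deposited occupancies are a smoothed signal over 50 bp, and an empty bin was read as 0. Rows were matched to promoters by their order, which has no identifier: the share of bins with signal correlated with the deposited coverage score at a Spearman's rho of 0.656, and at 0.434 and 0.438 when shifted by 1 row. The authors' promoter annotation also holds the coverage score, used as deposited, 1 expression value per cell-type (RNA-seq FPKM per the study's methods, from public data, as deposited) and 2 columns of the authors' expression changes upon stimulation, which were not used. Symbols were matched to 24924 of 25881 RefSeq names. TSSs were set against GENCODE for mm9, and 86.1% lay within 50 bp of an annotated start on the same strand.

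Occupancies were put on a common scale, as multiples of a library's own mean over high-coverage promoters, since this mean was 1.61 to 1.63 in pooled sets, 0.791 to 0.804 in single H3K4me1 libraries and 0.962 to 0.975 in polymerase libraries. Templates came from active promoters of the non-stimulated pooled set of each cell-type. Inducible promoters remained in them because the authors' induction columns were not used. limma 3.58.1 in R 4.3.3 was run with empirical Bayes moderation, two-sided tests and Benjamini-Hochberg adjustment over all promoters in the fit. The minimum of the coverage score was 100. Members at or below it have values from the fit on all promoters. Peaks were local maxima after dropping the 20% of lowest prominence. The fit was tested on simulated data.

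All 10 receptors are named. From the pathway list only promoters passing the cell-type test were to be named, and for the 3 high-coverage members with the smallest p the 3 nearest promoters. The members and lists were chosen with earlier results of these data known. Alternatives covered the scaling, transform, template, coverage minimum, NDR window, flank, pseudocount, library weights, replicate block and leaving out each library.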

Additional observations from a re-analysis of the deposited data

How the results depend on the processing

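No Toll-like receptor promoter passed an adjusted p of 0.05 in limma under any of the settings run; the smallest adjusted p of a member was 0.154. The count of promoters called for the cell-type difference in patterning level (6) was 119 with occupancies as deposited, 0 with the square root of occupancy, 10 in the 4 pooled sets only and 0 with the BAF-knockdown libraries left out, an alternative chosen after seeing the data. Leaving out 1 library gave 0 to 5, with 0 whenever a pooled set was left out (non-stimulated or stimulated DCs, non-stimulated or stimulated fibroblasts). The count for the NDR ratio (0) was 9 with a window of −200 to 50 bp, 6 with a pseudocount of 0.02 and 54 over all promoters; the cause was not tested. The TNF-α and BAF-knockdown counts stayed at 0 in every alternative. At the members, 589 of 638 values under an alternative kept their sign. Many of these could not change. The cell-type estimate rests on the 4 pooled sets, so leaving out a single library, library weights or the replicate block left it the same. The TNF-α and BAF-knockdown estimates were likewise the same with the replicate block and over all promoters. The count is therefore no measure of stability. Besides leaving out 1 library, the sign turned for the NDR ratio of Tlr2 (−0.25 with a window of −200 to 50 bp, −0.011 with both flanks) and Tlr6 (0.21 with that window), and for the patterning level of Tlr3 (0.906 with the square root). Promoter by promoter, deviations of same-numbered single libraries correlated at only 0.000394 to 0.0112. Libraries of the same number still shared a level of signal. Over high-coverage promoters 73.4 to 78.1% of bins held signal in replicates 1, against 63.6 to 69.7% in replicates 2. With the replicate block 5 promoters were called for the patterning level, 0 for the NDR ratio, 0 for TNF-α and 0 for BAF knock-down. The Tlr13 NDR difference kept its sign but not its size. It was −4.20 with a pseudocount of 0.02, −1.27 with 0.5 and −1.89 with a window of −200 to 50 bp. Leaving out 1 library gave the Tlr13 NDR difference a range of −3.50 to −1.98 and its patterning difference 5.56 to 11.7, without a change of sign. The cell-type difference in patterning level turned at Tlr9 (−0.22 to 12.2), Tlr1 (−1.82 to 3.69), Tlr3 (−8.43 to 4.46), Tlr4 (−0.97 to 11.9), Tlr6 (−1.71 to 11.4) and Tlr8 (−6.05 to 9.64). That in the log2 NDR ratio turned at Tlr1 (−1.10 to 0.072), Tlr2 (−0.094 to 0.45), Tlr3 (−0.85 to 0.21), Tlr4 (−1.32 to 0.038), Tlr5 (−0.083 to 0.38), Tlr6 (−0.73 to 0.55), Tlr7 (−1.63 to 0.13) and Tlr8 (−0.87 to 1.86). The TNF-α effect turned at Tlr2 (−8.18 to 0.515), Tlr5 (−3.91 to 1.19), Tlr8 (−0.838 to 6.60) and Tlr9 (−9.79 to 0.489). The BAF-knockdown effect turned at Tlr1 (−1.68 to 1.91), Tlr2 (−2.63 to 6.06), Tlr3 (−2.00 to 1.68), Tlr5 (−1.97 to 2.64), Tlr7 (−5.06 to 0.551), Tlr8 (−6.58 to 0.858), Tlr9 (−7.02 to 3.45) and Tlr13 (−2.04 to 3.86). Pooled sets carry no replicate error, DCs have no single library, and 4 members are at low coverage.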
